A study of Mus musculus with 4 samples.

Results

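*Btla*, *Cd200*, *Slc35a5* and *Phldb2* lie close together on chromosome 16 of the mouse (mm10). They were chosen by symbol because their counts differed between *Ezh2* mutant and control oocytes and because they lie between positions 44300000 and 49200000 of that chromosome. These are 4 of the 69 annotated genes of that interval and of 55335 gene IDs in the deposited data. All 4 had enough counts to be tested. The mutant libraries had more *Btla*, *Cd200* and *Phldb2* than the controls and less *Slc35a5*. Since the difference between the groups chose the genes, their fold changes are a description and carry no test.

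The series measured RNA of oocytes from C57BL/6 mice with Smart-Seq2, an amplification of whole cDNA molecules made for minute amounts of RNA. It holds 2 libraries with the genotype label Control and 2 with the genotype label Mutant. The mutation is a point change at the alternative splice site of exon 3 of *Ezh2*, which encodes the histone H3 lysine 27 methyltransferase of Polycomb repressive complex 2, and the series names a long and a short allele without saying which one these libraries carry. Both groups share the strain and the cell type, and the short library names begin with MII. The labels give neither age, nor the number of oocytes in a library, nor whether the libraries came from separate animals, so a p-value here reflects no more than the scatter of these libraries, which may be technical.

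*Btla* and *Cd200* encode inhibitory surface proteins. BTLA is an inhibitory receptor of B and T lymphocytes. It binds the protein encoded by *Tnfrsf14* and recruits the phosphatases encoded by *Ptpn6* and *Ptpn11*. CD200 is a surface glycoprotein of many cell types that restrains myeloid cells through the receptor encoded by *Cd200r1*. SLC35A5 belongs to the family of nucleotide sugar transporters of the Golgi and endoplasmic reticulum. PHLDB2, also called LL5 beta, binds phosphoinositides at the cell cortex, where it anchors CLASP proteins and with them the ends of microtubules.

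*Slc35a5* (45139573 to 45158706, minus strand) comes first on the chromosome, followed by *Btla* (45224315 to 45257670, plus strand), *Cd200* (45382135 to 45409053, minus strand) and *Phldb2* (45746243 to 45953598, minus strand). Measured from start to start, *Btla* lies 65.6 kb from *Slc35a5*, 185 kb from *Cd200* and 729 kb from *Phldb2*. The sequences before their starts are shown because the genes are neighbours that differ in the size and the direction of their change. They come from the RefSeq promoter table (GRCm38.p6), which matched all 4 genes, and were cut to the bases that lie before the RefSeq start and in no GENCODE M21 exon. Each is written 5′ to 3′ on the strand of its gene, and capitals mark the motifs CACGTG (E-box) and GGGCGG (GC box), searched on both strands.

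Slc35a5, chr16:45158707-45158784, minus strand: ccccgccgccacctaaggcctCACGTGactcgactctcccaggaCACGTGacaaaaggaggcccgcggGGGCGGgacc

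Btla, chr16:45224087-45224314, plus strand: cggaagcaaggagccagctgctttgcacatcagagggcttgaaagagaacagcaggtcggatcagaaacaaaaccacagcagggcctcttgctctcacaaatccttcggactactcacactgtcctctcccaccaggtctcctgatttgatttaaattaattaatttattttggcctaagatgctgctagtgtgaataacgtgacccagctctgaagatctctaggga

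Cd200, chr16:45409054-45409303, minus strand: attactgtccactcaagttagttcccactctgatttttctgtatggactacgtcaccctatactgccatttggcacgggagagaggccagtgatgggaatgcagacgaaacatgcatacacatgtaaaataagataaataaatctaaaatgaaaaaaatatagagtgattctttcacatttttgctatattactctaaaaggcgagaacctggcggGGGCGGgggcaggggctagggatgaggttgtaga

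Phldb2, chr16:45844379-45844628, minus strand: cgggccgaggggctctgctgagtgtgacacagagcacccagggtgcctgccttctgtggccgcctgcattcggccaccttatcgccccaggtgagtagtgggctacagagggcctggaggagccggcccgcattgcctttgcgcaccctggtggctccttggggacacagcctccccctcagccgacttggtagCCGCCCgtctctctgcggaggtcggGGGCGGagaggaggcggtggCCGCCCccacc

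The *Slc35a5* stretch is the whole gap of 78 bases between that gene and *Atg3*, which starts on the opposite strand, so the pair has a head-to-head arrangement. It held 2 E-boxes and 1 GC box. Over the full window of 300 bases, from 250 before to 50 after the start, 7.15% of 32817 mouse promoter windows held an E-box and 0.594% held 2 or more. The *Phldb2* stretch held 3 GC boxes, where 35.6% of windows held at least 1 and 10.7% at least 3. Its window belongs to a start inside the annotated gene at 45844378, not to the farthest start at 45953598. In *Cd200* 1 GC box was found. The printed *Btla* bases held no searched motif, and its window held 1 E-box after the printed stretch. RefSeq also begins the *Btla* gene farther upstream, at 45223705. No window of the 4 genes held CCAAT or TATAAA on either strand, which 37.4% and 13.6% of all windows held. The windows of *Slc35a5* and *Phldb2* were rich in CpG, with 28 and 23 CpG sites, against 8 for *Cd200* and 5 for *Btla* and a median of 7 over all windows. A match is a description of the letters, not a bound site.

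For *Btla*, controls 1 and 2 had 15 and 25 counts, against 1710 and 1591 counts for mutants 1 and 2. As CPM (read counts divided by the library size, scaled by the TMM method) the controls stood at 0.604 and 0.992 and the mutants at 60.7 and 59.8. The mutant libraries were thus nearly equal and far above both controls. The control mean was 0.798 ± 0.274 CPM and the mutant mean 60.2 ± 0.679 CPM (SD, n = 2 each), a log2 fold change of 6.23 (SE 0.302). Each mutant library exceeded each control library, by between 60.2-fold and 101-fold. Between the 2 controls the level differed 1.64-fold and between the 2 mutants 1.02-fold, where the median tested gene differed 1.26-fold between controls and 1.28-fold between mutants. In TPM, a level that takes the transcript length into account, *Btla* stood at 0.34 and 0.61 in the control libraries against 29.80 and 31.27 in the mutant libraries. Of the tested genes, 24.0% had a lower mean TPM than *Btla* in controls and 78.0% in mutants.

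*Cd200* was readily detected in both groups, with 873 and 836 counts among controls against 2618 and 2002 among mutants. Controls 1 and 2 stood at 35.2 and 33.2 CPM and mutants 1 and 2 at 93.0 and 75.2 CPM. The groups did not overlap, and mutant 1 was the higher mutant. Its mean was 34.2 ± 1.40 CPM among controls and 84.1 ± 12.6 CPM among mutants (SD, n = 2 each), which gave a log2 fold change of 1.30 with an SE of 0.179. Each mutant library exceeded each control library, by between 2.14-fold and 2.80-fold. In TPM its controls stood at 15.03 and 14.87 and its mutants at 43.15 and 35.16.

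*Slc35a5* went the other way. The controls had 2397 and 1982 counts of it and the mutants 1287 and 1264. Both controls, at 96.5 and 78.7 CPM, lay above both mutants, at 45.7 and 47.5 CPM. The control mean of 87.6 ± 12.6 CPM compared with a mutant mean of 46.6 ± 1.26 CPM (SD, n = 2 each), for a log2 fold change of -0.91 and an SE of 0.171. Here the controls differed more from each other than the mutants did, 1.23-fold against 1.04-fold. Its TPM values were 31.71 and 27.83 for the controls against 19.84 and 18.73 for the mutants.

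*Phldb2* was the least abundant of the 4. Its counts were 10 and 13 for the controls and 177 and 91 for the mutants, which is 0.403 and 0.516 CPM against 6.29 and 3.42 CPM. The mutants differed 1.84-fold from each other, more than for the other 3 genes, and neither overlapped the controls. Mean levels were 0.459 ± 0.0801 against 4.85 ± 2.03 CPM (SD, n = 2 each), with a log2 fold change of 3.39 and an SE of 0.556. Its TPM values were 0.07 and 0.18 for the controls against 1.77 and 1.20 for the mutants, and 33.0% of tested genes had a lower mean TPM in the mutants. The predicted antisense genes *Gm15640* and *Gm15638* overlap *Phldb2* and had 0 and 1 count over all libraries, and no annotated gene overlaps the other 3.

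**Figure D1:**
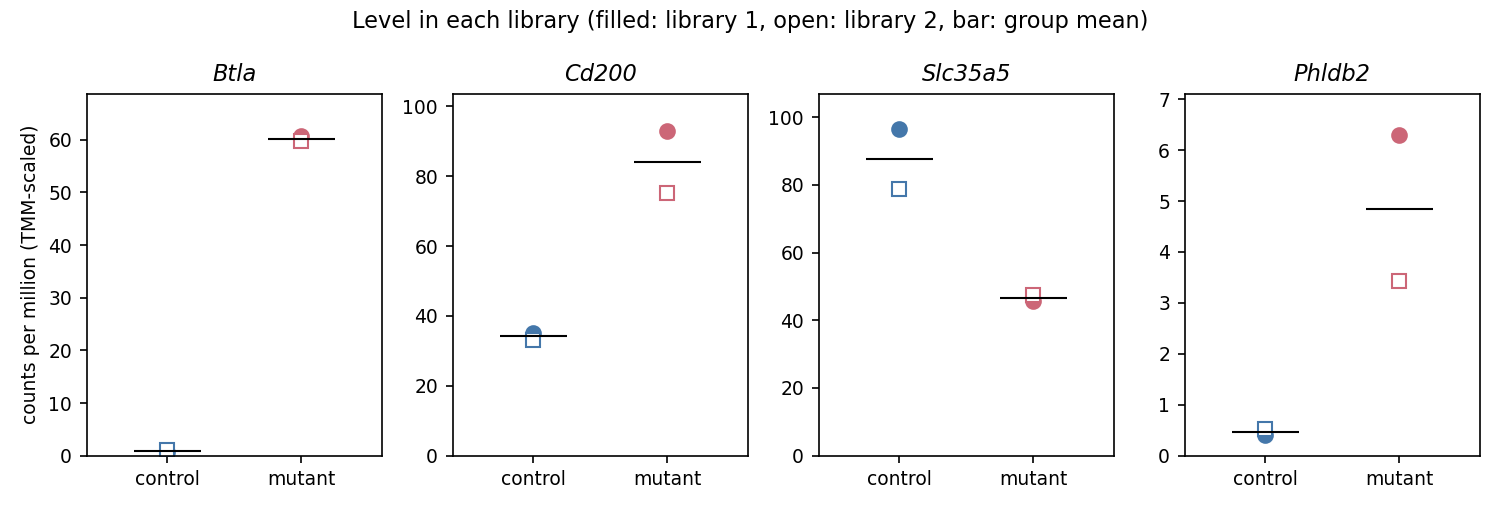
Levels of *Btla*, *Cd200*, *Slc35a5* and *Phldb2* in CPM (TMM-scaled, linear axes from 0) in each control and mutant library, with bars at the group means. Both mutants lie above both controls for *Btla* (60.7 and 59.8 against 0.604 and 0.992 CPM), *Cd200* and *Phldb2*, and below them for *Slc35a5* (45.7 and 47.5 against 96.5 and 78.7 CPM).

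The order of the 4 levels, compared per length, differed between the groups. In controls *Slc35a5* was highest at 29.8 ± 2.74 TPM, before *Cd200* at 14.9 ± 0.113, *Btla* at 0.475 ± 0.191 and *Phldb2* at 0.125 ± 0.0778 TPM (SD, n = 2 each). In mutants *Cd200* led at 39.2 ± 5.65 TPM, before *Btla* at 30.5 ± 1.04, *Slc35a5* at 19.3 ± 0.785 and *Phldb2* at 1.48 ± 0.403 TPM. Neighbours in each order did not overlap between their libraries. The closest in the mutants, as a ratio, were *Cd200* in mutant 2, at 35.16 TPM, and *Btla* in the same library, at 31.27 TPM.

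All 4 genes passed the threshold used for all genes, an adjusted p under 0.05 in edgeR's quasi-likelihood test, which 3.75% of 15493 tested genes passed, 1.77% as higher and 1.98% as lower in the mutants. Both mutants exceeded both controls for 28.8% of tested genes and lay below both for 25.7%. Nothing is read from these shares for the 4 genes, since the same contrast chose them. The number of genes past the threshold depended on single libraries. It was 581 with all libraries, 22 without control 1, 27 without control 2, 1688 without mutant 1 and 1025 without mutant 2. *Cd200*, *Slc35a5* and *Phldb2* each failed to pass in some of the fits with a library left out. *Slc35a5* also did not pass with upper quartile scaling or with the size factors of DESeq2. These fits use the values that chose the 4 genes, so passing in them is no support for any of the 4.

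The deposited RSEM tables, which divide reads that fit several genes and count only reads placed on annotated transcripts, gave the same directions. Their log2 fold changes were 5.93 (SE 0.295) for *Btla*, 1.18 (SE 0.201) for *Cd200*, -0.89 (SE 0.177) for *Slc35a5* and 3.53 (SE 0.721) for *Phldb2*. The tables held fewer counts than the matrix for *Cd200* in particular. Its RSEM count was 63.7% and 61.4% of its matrix count in controls 1 and 2 and 56.8% and 58.0% in mutants 1 and 2. Over genes whose mean reached 1 CPM and which had 10 or more counts in the library, the median share was between 91.1% and 92.6% in the 4 libraries, and between 16.7% and 18.5% of those genes had a lower share than *Cd200*. For *Btla* the share was 71.9% and 74.1% in the mutants, against 100% and 84.0% of the few counts in the controls. *Slc35a5* kept between 93.3% and 95.5% in every library. *Phldb2* kept 73.4% and 69.2% in the mutants. Why the matrix holds more counts than the tables for a gene was not tested.

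**Figure D2:**
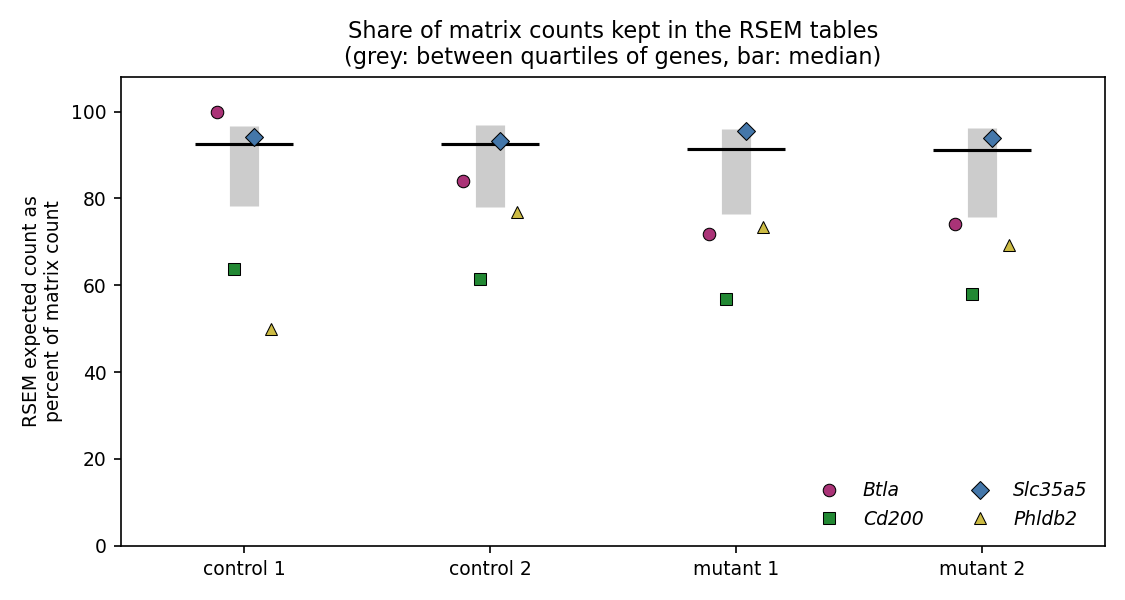
RSEM expected count as a percent of the matrix count in each library for the 4 genes (points), with the median (bar) and the range between the quartiles (grey) of all genes whose mean reached 1 CPM and which had 10 or more counts in that library. *Cd200* lies between 56.8% and 63.7% in every library and *Slc35a5* between 93.3% and 95.5%, while the medians lie between 91.1% and 92.6%.

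The gene lengths in those tables are means over the annotated transcripts, weighted by the estimated share of each, so a change in length means a change in the estimated mix. *Slc35a5*, with 8 annotated transcripts, had a length of 4233 bases in both controls and of 3946 and 4172 bases in mutants 1 and 2. *Cd200*, with 11 transcripts, had 2347 bases in both controls, while its mutants had 2336 and 2332. The *Btla* controls, which rest on few counts, had 2727 and 2348 bases and its mutants 2732 and 2615. *Phldb2* had 4436 and 3612 bases among controls against 4620 and 3505 among mutants, so library 1 had the longer mean in both groups.

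The other genes of the interval are given as a description. The 4 genes were taken out of it because they changed in this contrast, so the counts of the rest do not show whether the stretch of chromosome moved as a whole. Of the 65 others, 34 had no count in any library and 16 were abundant enough to test. None of the 16 passed the threshold in edgeR's quasi-likelihood test, and 1 had an unadjusted p under 0.05, beside 3557 of all 15493 tested genes. DESeq2 called 1 of the 16 and limma 0, beside 1993 and 738 of all 15493 tested genes. Among the 16 the log2 fold change was positive for 6 and negative for 10, and its median was -0.12. On the rest of chromosome 16, 7 of 467 tested genes were higher and 11 lower past the threshold, with a median of 0.15, and over all tested genes the median was 0.05. The groups did not overlap for 10 of the 16, 5 higher and 5 lower in the mutants, beside 54.6% of all tested genes.

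*Atg3*, which encodes an enzyme of autophagosome formation and shares the gap of 78 bases with *Slc35a5*, had 457 and 462 counts among controls against 393 and 261 among mutants. Both mutants lay below both controls, as for *Slc35a5*. Its control mean of 18.4 ± 0.0487 CPM compared with 11.9 ± 2.94 CPM (SD, n = 2 each), and the log2 fold change of -0.63 did not pass the test (SE 0.268, adjusted p = 0.225). *Atg3* is also the nearest tested gene before *Btla*, at a gap of 35.8 kb. On the other side of *Slc35a5*, the nearest tested gene was *Cd200r3*, of the CD200 receptor family. Its controls had 73 and 29 counts and its mutants 1 and 9 (log2 fold change -3.43, SE 1.04, adjusted p = 0.114). It thus did not pass edgeR's test with all libraries. DESeq2 gave an adjusted p of 0.0355, while limma gave 0.0861 and edgeR's test on the RSEM counts 0.155. With a library left out, its log2 fold change lay between -5.68 and -2.60.

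*Slc9c1*, which encodes a sperm sodium/proton exchanger, was the nearest tested gene beyond *Cd200*, at a gap of 126 kb, where the controls had 11 and 10 counts and the mutants 20 and 20 (log2 fold change 0.79, adjusted p = 0.566). Beside *Phldb2*, *Abhd10*, a mitochondrial thioesterase gene at a gap of 3.29 kb, had a control mean of 5.34 ± 0.0269 CPM and a mutant mean of 7.31 ± 1.47 CPM (log2 fold change 0.45, adjusted p = 0.473). The RSEM tables did not show this rise, with 132 and 174 *Abhd10* counts in controls against 161 and 140 in mutants. Its mean TPM was 3.83 in controls and 3.55 in mutants. *Plcxd2*, at a gap of 5.66 kb on the other side, had 12.1 ± 3.32 and 7.79 ± 0.464 CPM (log2 fold change -0.63, adjusted p = 0.282). None of these neighbours passed the test, and *Plcxd2* had the opposite sign to *Phldb2*.

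The 6 most abundant other genes of the interval had log2 fold changes between -0.30 and 0.12. *Cip2a*, which encodes an inhibitor of protein phosphatase 2A, was the most abundant, with 471 ± 73.4 CPM for controls against 381 ± 43.9 for mutants (adjusted p = 0.350). *Nectin3*, a cell adhesion gene, was at 333 ± 14.5 and 361 ± 21.8 CPM (adjusted p = 0.673), and *Dppa2*, a chromatin-associated gene of pluripotent cells and oocytes, at 127 ± 14.9 and 119 ± 6.77 CPM (adjusted p = 0.775). For *Dzip3*, *Spice1* and *Morc1* the adjusted p was 0.417, 0.728 and 0.887. *Spice1* is the first tested gene that lies wholly inside the low edge of the interval, while *Sidt1* (44240180 to 44333196, minus strand), a transmembrane protein gene, straddles that edge with its start inside and was not counted among the 69. *Sidt1* rose, from 398 and 513 counts to 1159 and 1227, with a log2 fold change of 1.26 (SE 0.211, adjusted p = 0.0347). Its adjusted p was 0.284 without control 1, 0.236 without control 2 and 0.0517 without mutant 2. At the high edge, *Myh15* inside had a log2 fold change of 0.94 (adjusted p = 0.384) and the pseudogene *Gm4802* outside -0.90 (adjusted p = 0.368).

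**Figure D3:**
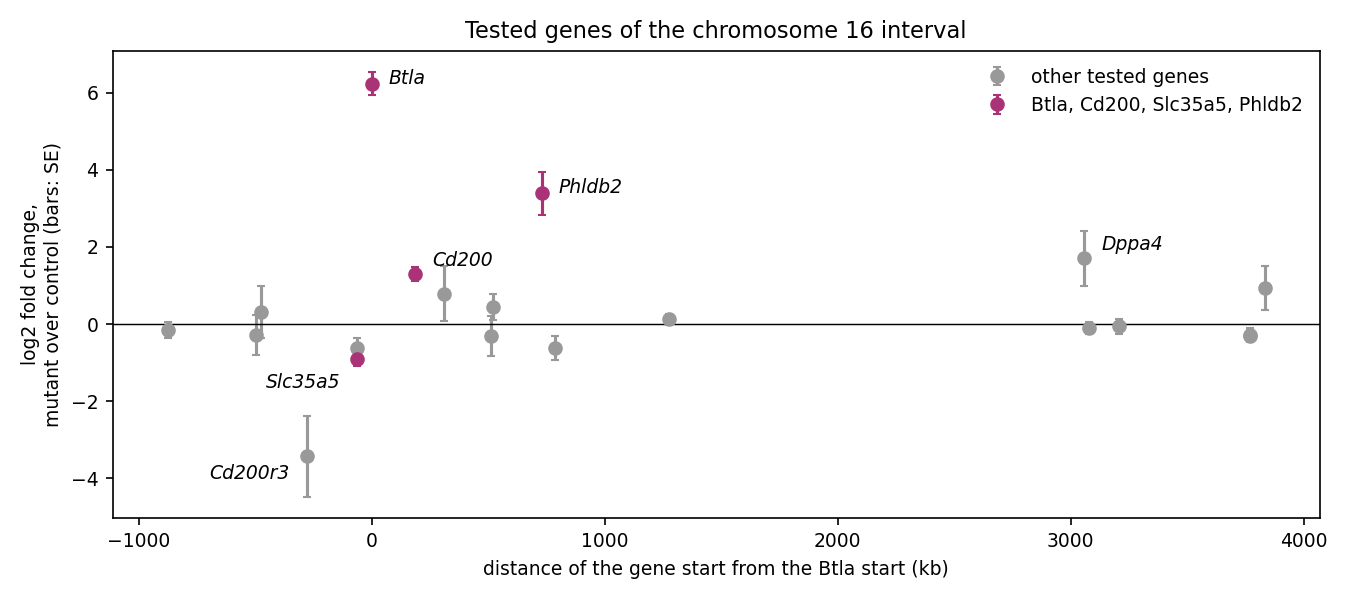
Log2 fold change (mutant over control, bars are SE) of the 20 tested genes of the interval by the distance of their start from the *Btla* start, in kb. *Btla*, *Cd200* and *Phldb2* lie above 0 and *Slc35a5* below, the other 16 genes lie on both sides of 0 and did not pass the threshold.

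The partners of BTLA and other co-inhibitory genes form a list of 21, of which 10 were tested and none passed in edgeR's test (3 at an unadjusted p under 0.05, median log2 fold change 0.57, 8 positive and 2 negative). For this list and those below, 3557 of all 15493 tested genes had an unadjusted p under 0.05 in the same test. *Tnfrsf14*, the gene of the BTLA ligand, had 0 counts in both controls and mutant 1 and 16 counts in mutant 2. *Cd160*, whose protein binds the same ligand, was abundant in all libraries, with 147 ± 6.36 CPM for controls against 146 ± 30.2 for mutants (log2 fold change -0.01, adjusted p = 0.974). *Ptpn11*, a phosphatase gene of the BTLA pathway, was at 110 ± 24.9 and 121 ± 9.06 CPM (adjusted p = 0.722). DESeq2 called *Pdcd1* and *Tigit*, which encode other inhibitory receptors. The *Pdcd1* counts were 3 and 5 among controls against 120 and 24 among mutants, and those of *Tigit* 1 and 3 against 16 and 100.

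For CD200, 5 of 10 partner genes were tested and none passed in edgeR's test (2 at an unadjusted p under 0.05, median log2 fold change 0.05). DESeq2 called *Cd200r3* and *Cd47* among them. *Cd200r1* and *Cd200r2*, which lie in the interval as well, had 0 counts in every library, which allows up to 0.121 CPM at 3 counts in the library where 1 count weighs most. *Cd200r4* had 9 counts, all in mutant 2. *Rasa1*, a Ras regulator downstream of the receptor, averaged 87.4 ± 15.0 CPM among controls against 91.1 ± 1.19 among mutants (adjusted p = 0.874), and *Inpp5d*, an inositol phosphatase gene, was at 18.9 ± 5.94 and 19.6 ± 8.88 CPM (adjusted p = 0.953).

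Of the 26 other genes of the SLC35 family, 21 were tested and none passed in edgeR's test (1 at an unadjusted p under 0.05, 1 by DESeq2, median log2 fold change 0.16, 14 positive and 7 negative). The CMP-sialic acid transporter gene *Slc35a1* averaged 34.0 ± 3.15 CPM among controls against 36.5 ± 9.87 among mutants (adjusted p = 0.843). *Slc35b4*, of the same family, was at 27.0 ± 8.14 and 39.2 ± 1.36 CPM (adjusted p = 0.256).

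Among 18 relatives and partners of PHLDB2, 16 were tested. In edgeR's test 2 rose and none fell past the threshold, which is 12.5% beside 3.75% of all tested genes. At an unadjusted p under 0.05 there were 7. The median log2 fold change was 0.23, with 11 positive and 5 negative. DESeq2 also called *Itgb1* and *Dag1*, while *Musk* was lower in both mutants (log2 fold change -0.43, adjusted p = 0.139 in edgeR's test). *Tln1*, which encodes the integrin linker talin, had 4 and 9 counts among controls against 87 and 181 among mutants. It rose 19.1-fold, to 4.94 ± 2.62 CPM, with a log2 fold change of 4.23 (SE 0.692, adjusted p = 0.0319). *Ppfibp1*, a liprin gene, rose 1.93-fold from a control mean of 57.3 ± 3.36 CPM, with a log2 fold change of 0.95 (SE 0.174, adjusted p = 0.0422). It did not pass with the RSEM counts (log2 fold change 0.59, adjusted p = 0.113) or without mutant 1 (adjusted p = 0.0509). Without control 1 or control 2 neither gene passed, with adjusted p between 0.275 and 0.329. The CLASP genes *Clasp1* (log2 fold change -0.06, adjusted p = 0.890) and *Clasp2* (0.35, adjusted p = 0.256) did not pass. Over the 4 lists together, 2 of 52 tested genes passed, which is 3.85% beside 3.75% of all genes. That count was 0 without control 1 or control 2, 8 without mutant 1 and 6 without mutant 2.

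**Figure D4:**
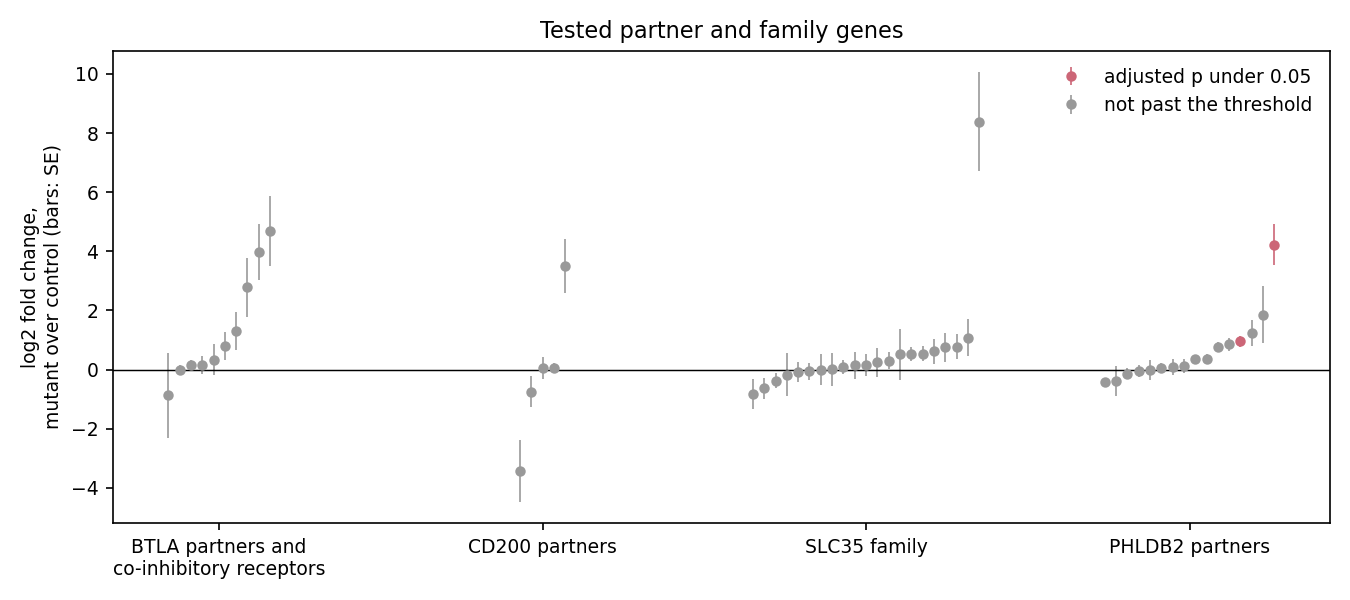
Log2 fold change (mutant over control, bars are SE) of the tested genes of the 4 lists, in rising order within each list, with the 2 genes past the threshold in colour. The highest point of the SLC35 family is *Slc35d1*, which had 0 counts in both controls, so its fitted value depends on the prior count, and the coloured points are *Ppfibp1* and *Tln1*.

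Genes with the most similar levels over the 4 libraries were found by the Euclidean distance of log2(CPM + 1), as a description. Nearest to *Btla* were *Pnpla3* on chromosome 15 (distance 0.29), *Stk32a* on chromosome 18 (0.61) and the pseudogene *Rps2-ps10* on chromosome 18 (0.83). The likeness rests on matrix counts. In mutants 1 and 2, *Pnpla3* had 1759 and 1944 matrix counts but 224 and 200 RSEM counts. *Stk32a* had 1287 and 1160 against 664 and 605, and *Rps2-ps10* had 1921 and 1117 against 4008 and 2385. Nearest to *Cd200* were *Utrn* (0.35), *Traip* (0.37) and *Arl6ip6* (0.53), and to *Slc35a5* they were *Fer* (0.16), *Bbs9* (0.17) and *Cfap53* (0.21). For *Phldb2* they were *Zdhhc21* (0.25), *Gtf2i* (0.37) and *Mef2a* (0.41). None of these 12 lies on chromosome 16. The search left out the 4 genes themselves and genes with predicted or numbered names. Outside the interval chromosome 16 holds 467 of the 15493 tested genes, so nothing is read from this.

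Markers of other cells were read beside these values because lymphocytes carry *Btla*. All 16 oocyte markers had counts in every library, with a summed level between 14408 and 15944 CPM. Of 10 B lymphocyte markers, the defining genes *Cd79b*, *Blk* and *Fcrla* had 0 counts in all libraries and *Cd79a* had at most 2 counts in a library. *Cd22* had 0 counts in both controls against 13 and 3 in the mutants, and *Ighm*, the immunoglobulin M heavy chain gene, stood at 4.71 and 4.88 CPM in controls against 5.18 and 10.8 CPM in mutants (log2 fold change 0.73, adjusted p = 0.360). *Cr2* and *Pax5* went the other way. *Cr2* stood at 0.483 and 0.556 CPM in controls against 0 and 0 in mutants, and *Pax5* at 2.26 and 4.33 CPM against 1.35 and 1.99 CPM. The B lymphocyte list summed to 273 and 206 CPM for controls against 136 and 171 for mutants, nearly all of it *Ms4a1*. The T lymphocyte list summed to 3.95 and 4.68 CPM for controls, 4.55 for mutant 1 and 29.7 for mutant 2. Of its 10 genes, 6 were at 0 in each control, 4 in mutant 1 and 0 in mutant 2. *Cd3d*, *Cd3e* and *Cd3g* were at 0 in mutant 1, whereas *Trac*, the T cell receptor alpha constant gene, had 2 and 0 counts in controls against 91 and 17 in mutants 1 and 2 (log2 fold change 5.44, adjusted p = 0.0747). *Cd2* and *Lck* had 0 counts in both controls, 7 and 1 in mutant 1 and 261 and 341 in mutant 2. *Cd4* and *Cd5* of the same list had fewer counts in both mutants than in both controls. *Btla* stood at 60.7 and 59.8 CPM in the same mutants, and the part of lymphocytes in its level was not tested.

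The myeloid list was, like *Btla*, higher in both mutants, at 38.6 and 67.7 CPM against 11.6 and 10.1 CPM in the controls, and its part in the *Btla* level was not tested. Of its 12 genes 7 were tested and 2, *Cd74* and *Lyz2*, were higher past the threshold (adjusted p = 0.0428 and 0.0437, and between 0.203 and 0.296 without control 1 or control 2). The tested *H2-Aa*, *H2-Ab1* and *Fcer1g* were higher in both mutants but did not pass edgeR's test. *Cd68* and *Csf1r* overlapped between the groups (log2 fold change -0.38 and 0.31). *Ptprc*, carried by all leukocytes, made up 43.2 of the 67.7 CPM in mutant 2. It was at 0 in both controls and at 0.107 CPM in mutant 1. *Cd96*, a lymphocyte gene of the interval, was likewise highest in mutant 2, with 115 counts against 8, 1 and 2 in the other libraries. Cumulus and granulosa markers summed to 83.9 and 63.0 CPM in controls, 451 CPM in mutant 1 and 50.7 CPM in mutant 2. Of these sums, *Cyp19a1* made up 34.2 and 42.5 CPM in controls and 16.4 and 23.6 CPM in mutants 1 and 2. *Phldb2* and the interval gene *Boc* were also higher in mutant 1 than in mutant 2. *Cd200* was 1.24-fold higher in mutant 1, where the median tested gene differed 1.28-fold between mutants. *Boc* had 86 counts in mutant 1 and at most 4 in the others. Endothelial markers summed to between 33.7 and 46.8 CPM and smooth muscle and theca markers to between 48.0 and 63.1 CPM. Most of the endothelial sums was *Pecam1* and *Tek*, while *Emcn* and *Cldn5* had 0 counts in all libraries. Most of the smooth muscle and theca sums was *Myh11*, at 42.7 and 57.8 CPM in controls against 54.4 and 55.1 CPM in mutants. *Cyp17a1* of that list had 0 counts in all libraries. The part of such cells in the levels of *Cd200* and *Phldb2* was not tested, and in libraries of bulk RNA more cells of a type and more RNA per cell cannot be told apart.

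**Figure D5:**
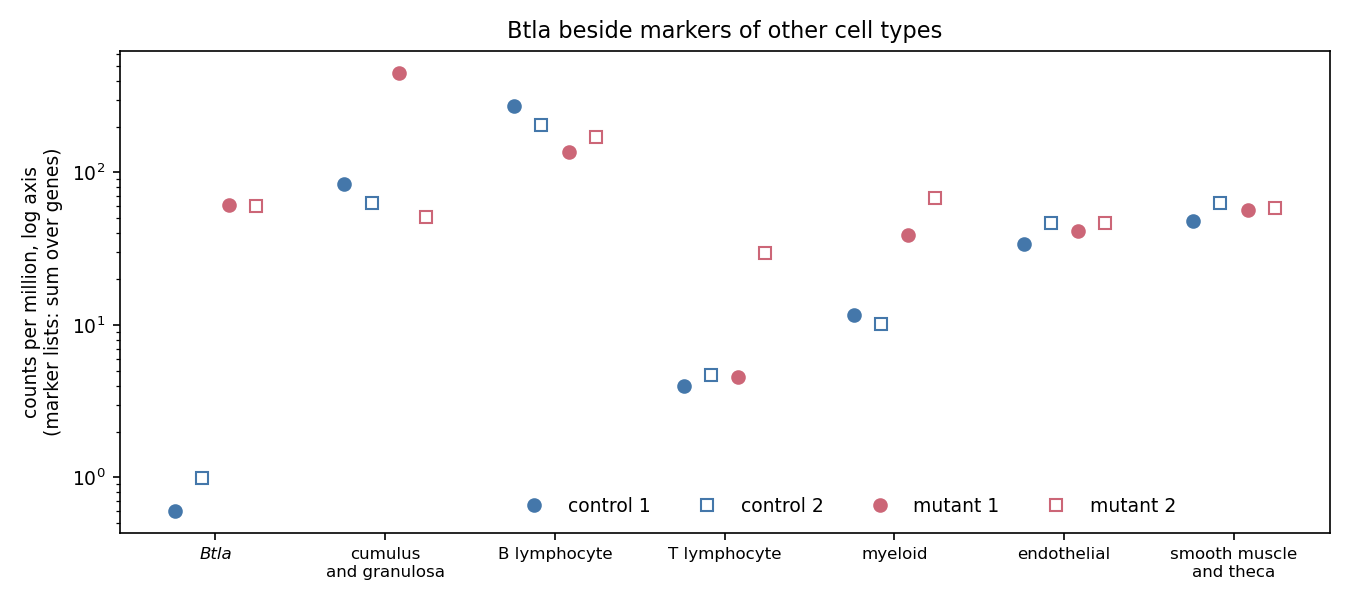
Level of *Btla* and summed levels of the marker lists of 6 other cell types in each library, in CPM on a log axis. *Btla* is at 60.7 and 59.8 CPM in mutants 1 and 2, while the T lymphocyte list is high in mutant 2 (29.7 CPM) and the cumulus and granulosa list in mutant 1 (451 CPM).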

How the data were processed

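The 4 libraries were grouped and numbered by their titles. One file deposited by the authors holds raw counts for each gene and library, and 4 others, per the file headers, hold RSEM expected counts, TPM, FPKM and lengths. The submitters' processing notes name cutadapt 1.16, STAR, RSEM and the mm10 build. Not given in the sources used here are settings, strand use and the program that counted reads for the matrix. FPKM values, as deposited, were left aside. A library held from 25090032 to 26617816 matrix counts. Of 55335 gene IDs, 55154 matched GENCODE M21.

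The matrix was tested over all genes in R 4.3.3 with edgeR 4.0.16 (quasi-likelihood test with TMM, filterByExpr and genotype alone in the model, 2 residual degrees of freedom, Benjamini-Hochberg adjusted p under 0.05) after tests on simulated data. The SE is the log2 fold change over the square root of F. CPM values are on the TMM-scaled sizes of the tested genes. Expected counts were rounded to whole numbers for the same test. A floor of 3 counts covers counting error only, and amplified reads are not independent molecules. Near-identical copies, overlapping and antisense genes are uncertain.

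The genes and lists were chosen with earlier results of these data known. Besides the 4 genes, the text names by rule the interval genes past the threshold, the nearest tested gene on each side of each gene, the 6 most abundant others of the interval, list members past the threshold or else the 2 most abundant, and the 3 genes nearest in level. *Tnfrsf14*, *Pdcd1*, *Tigit*, *Cd47*, *Cd200r4*, the CLASP genes, *Itgb1*, *Dag1*, *Musk*, *Slc35d1*, *Sidt1*, *Myh15*, *Gm4802*, *Cd96*, *Boc*, *Cd5*, *Dppa4* and single markers were named after their values were seen. Alternatives were DESeq2 1.42.0, limma 3.58.1 (trend, prior count 2), other scalings and filters, RSEM counts, a replicate block, each library left out, other bounds and another threshold. Figures were drawn with matplotlib 3.10.9.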

Additional observations from a re-analysis of the deposited data

How the results depend on the processing

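The log2 fold changes of *Btla*, *Cd200*, *Slc35a5* and *Phldb2* kept their sign and moved by less than the spread between replicates under every alternative run, between 5.91 and 6.58, 1.12 and 1.43, -1.1 and -0.76, and 2.87 and 3.75, and these bounds were all reached with a library left out. *Phldb2* gave no value where genes had to average 10 CPM.

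The number of all genes past the threshold, 581, was 1993 with DESeq2, 1322 with no filter on low counts and 1721 at an adjusted p under 0.1, and ranged from 22 to 1688 with a library left out. For the interval genes other than the 4, the count of 0 became 1 with DESeq2 (*Cd200r3*), 1 with genes that touch the interval (*Sidt1*) and 3 with the interval widened by 2 Mb, and ranged from 0 to 2 with a library left out (*Cd96* without mutant 1, *Boc* and *Cd200r3* without mutant 2). The count of 2 on the partner and family lists was 9 with DESeq2, 9 with no filter, 1 with the RSEM counts and 8 at an adjusted p under 0.1, and ranged from 0 to 8 with a library left out. The number tested changed as well. It was 17 with genes that touch the interval and 36 with the wider interval, where all 3 called genes were higher in the mutants. With no filter, 70 list genes and 26406 of all genes were tested. The cause of the changed counts was not tested.

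Same-numbered libraries share only a number, and their deviations from the group means correlated at 0.166 across genes. With the replicate number as a block, 1213 genes, 0 interval genes and 6 list genes passed. A single count weighed between 0.0355 and 0.0403 CPM, which limits how well the control levels of *Btla* and *Phldb2* are known.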

Other observations

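*Ms4a1*, the gene of the B cell surface protein CD20, was abundant in these oocyte libraries while most other B lymphocyte markers were at or near 0. Controls stood at 265 and 196 CPM and mutants at 129 and 158 CPM, and its log2 fold change of -0.68 did not pass edgeR's test (SE 0.197, adjusted p = 0.102). *Cd5*, a T lymphocyte gene, had 75 and 83 counts among controls against 17 and 11 among mutants (log2 fold change -2.62, adjusted p = 0.0537). Other genes of the lymphocyte lists went both ways. *Trac*, *Cd2*, *Lck* and *Ighm*, among others, had more counts in both mutants than in both controls, though *Lck* had a single count in mutant 1. *Cr2*, *Pax5* and *Cd4* had fewer counts in both mutants. Their counts were 12 and 14 for *Cr2* in controls against 0 and 0 in mutants, and 56 and 109 against 38 and 53 for *Pax5*. For *Cd4* they were 17 and 28 against 9 and 13.

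*Dppa4*, the partner and neighbour of *Dppa2* in the interval, had 12 and 7 counts among controls against 45 and 24 among mutants (log2 fold change 1.70, SE 0.724, adjusted p = 0.224), while *Dppa2* had 2899 and 3472 against 3496 and 3050.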
